A study of Arabidopsis thaliana with 2 samples.

Results

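The pericentromere of chromosome 1 of Arabidopsis thaliana was taken as the 400 bins of 10 kb whose midpoints lie from 13 to 17 Mb, out of 11916 nuclear bins in all and 3043 on chromosome 1. The choice rests on position alone and on no count. The series holds 1 library of the chr5 mutant and 1 wild-type library, both from leaves of untreated plants grown on plates at 22 °C, in which chromatin was digested with micrococcal nuclease (MNase) and the protected DNA was sequenced. The labels name neither the chr5 allele nor the accession nor the age of the plants. CHR5 encodes an ATP-dependent chromatin remodeller of the CHD type within the SNF2 family, and the comparison asks where nucleosome-protected DNA differs when it is mutated. Since each genotype has a single library, the differences have no replicate check and no test between genotypes was possible. All intervals cover counting error only.

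Pericentromeres flank the centromere, where tandem satellite arrays carry the centromeric histone H3 variant that anchors the kinetochore. In Arabidopsis they are rich in retrotransposons and poor in genes, and they are packed as heterochromatin with dense DNA methylation and methylated histone H3. MNase cuts the linker DNA between nucleosomes first, so the number of protected fragments from a stretch of DNA reflects how much of it is held in nucleosomes, how readily the enzyme digests it and how well its reads can be placed. In repeated DNA a read with several equal matches may be dropped or assigned to one copy. Counts were therefore read between libraries within a bin rather than as nucleosome density between bins.

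The annotation fits the name of the region. The gene table places 763 genes there by midpoint, of which 230 are protein-coding and 462 are pseudogenes, a class that in this annotation includes genes of transposable elements. In the median analysed bin protein-coding genes covered 0% of the length and pseudogenes 30.3%, whereas in the median bin of the chromosome 1 arms protein-coding genes covered 66.8% and pseudogenes 0%. The region held 2924983 counts in the chr5 library and 2924328 in the wild type. Its share of all nuclear counts was 2.86% in the chr5 library, with an exact Clopper-Pearson 95% interval of 2.853 to 2.859%, and 2.94% (2.939 to 2.946%) in the wild type. The nuclear totals were 102412872 counts in the chr5 library and 99392770 in the wild type, and counts were scaled to these.

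Not every bin of the region carried counts. Of the 400 bins, 37 were at 0 in both libraries and 29 held too few counts to be analysed (the mean of both scaled counts was below 0.25 times that of the median nuclear bin), which left 334. A bin at 0 allows up to 3 counts, or 0.029 CPM (counts per 1000000 nuclear counts) in the chr5 library and 0.030 CPM in the wild type. All 37 bins at 0 lay within 1 Mb of the approximate centromere position of 15 Mb, in 14 separate runs between 14350001 and 15410000. The longest run took 7 bins from 14750001 to 14820000. It was followed by 1 bin with 2 counts in the chr5 library and 0 in the wild type, and then by 5 more bins at 0 up to 14880000. In both libraries the same bins were empty apart from that one.

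These empty bins held no protein-coding gene. None of the 37 overlapped one, 17 overlapped an annotated pseudogene and the other 20 no annotated gene at all. Of the 29 bins at 0 elsewhere in the nuclear genome, 24 overlapped a protein-coding gene. The region thus held 37 of the 66 nuclear bins at 0, while the pericentromeres of the other 4 chromosomes held 3. How reads with several equal matches were treated is not known, so a bin at 0 was not read as free of nucleosomes.

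The 29 bins with few counts, 26 of them within 0.5 Mb of the centre, ranged up to 1832 counts in the chr5 library and 1842 in the wild type. Their medians were 566 counts in the chr5 library and 555 in the wild type. Summed, they held 19943 counts in the chr5 library and 18759 in the wild type, a fold of 1.03 (exact conditional binomial 95% interval 1.01 to 1.05), against 0.970 (0.969 to 0.972) for the sum of the analysed bins. Among the 28 of these bins with counts in both libraries, the interval of the fold lay above 1 in 5 bins and below 1 in 2. No such count is given for sparse bins outside the region. Apart from the bin with 2 and 0 counts, the sparsest was the bin from 15220001 to 15230000, with 2 counts in the chr5 library and 4 in the wild type. Next were the bins from 15370001 and from 15310001, each with 17 counts in the chr5 library, and with 14 and 15 in the wild type. The bin from 15320001 had 46 counts in the chr5 library and 74 in the wild type, and the bin from 15340001 had 78 in the chr5 library and 77 in the wild type. All 5 lie in a stretch from 15220001 to 15410000 in which no bin passed the count filter.

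**Figure D1:**
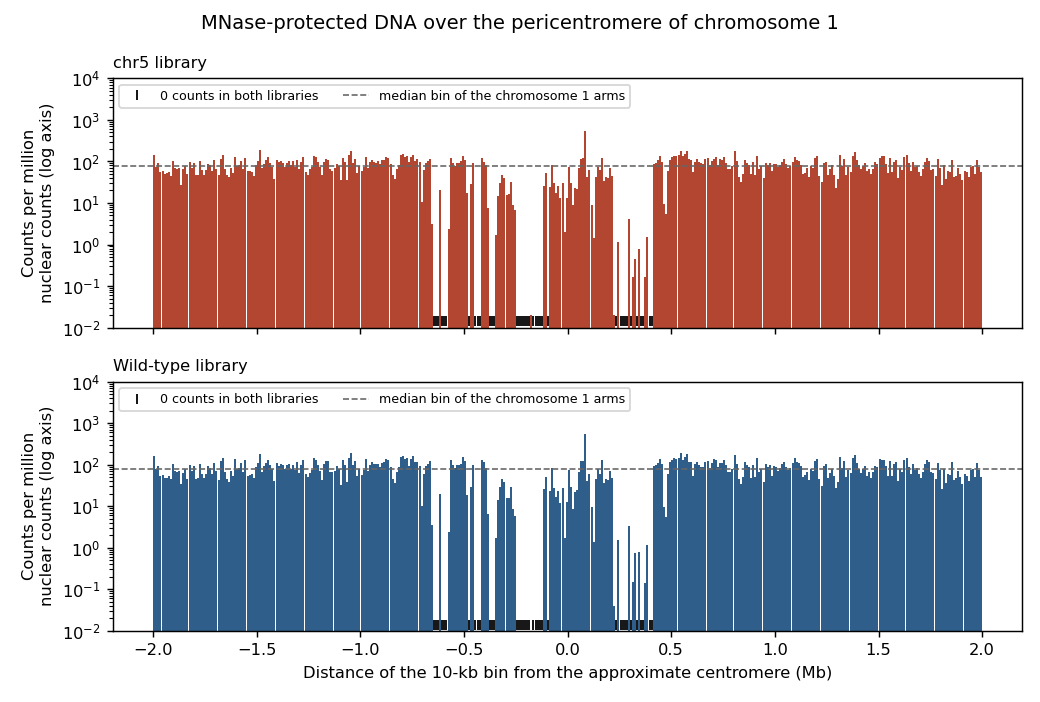
Scaled counts of each 10-kb bin (CPM, log axis) against distance from the approximate centromere in Mb, for the chr5 library above and the wild-type library below; black ticks mark the 37 bins at 0 in both and the dashed line the median analysed bin of the chromosome 1 arms (79.5 CPM in chr5 and 78.2 CPM in the wild type). Both libraries show the same gaps near the centre and the same single high bin just beyond it.

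Outside the gaps, the counts per bin were near those of the median nuclear bin. The median analysed bin held 8354 counts (81.6 CPM) in the chr5 library and 8331 counts (83.8 CPM) in the wild type. In the chr5 library this was 1.01 times the nuclear median bin, and in the wild type 1.05 times. Bins varied more among themselves than in the arms of chromosome 1, with a coefficient of variation of 48.6% in the chr5 library and 49.3% in the wild type, against 28.5% in chr5 and 29.9% in the wild type in the arms. Over bins more than 0.5 Mb from the centre it was 37.4% in chr5 and 38.8% in the wild type. Each of the other 4 pericentromeres had a higher value than the region, from 51.0% (wild type, chromosome 2) to 471% (chr5 library, chromosome 3). The lowest analysed bin held 2115 counts in the chr5 library, against a lowest of 1973 in the wild type. The other 4 pericentromeres lay higher, at 1.17 times the nuclear median in the chr5 library and 1.23 times in the wild type. In the chr5 library 7 of the 334 bins exceeded 2 times the nuclear median, against 84 of all 11735 analysed nuclear bins. In the wild type 8 did, against 1.34% of all analysed nuclear bins. Of the 1548 analysed bins of the other 4 pericentromeres, 63 did so in chr5 and 125 in the wild type.

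The profile varied along the region in the same way in both libraries. From 13 to 13.5 Mb the median bin was at 66.6 CPM in the chr5 library and 67.4 CPM in the wild type. It was highest from 14 to 14.5 Mb, at 98.1 CPM in the chr5 library and 103 CPM in the wild type, and again from 15.5 to 16 Mb, at 96.4 CPM in chr5 and 101.3 CPM in the wild type. These 2 stretches flank the centromere core and have the most pseudogene sequence among the windows of 0.5 Mb, 37.5% and 41.6% of their length. Between them, from 14.5 to 15 Mb, only 17 of 50 bins could be analysed and their median was 39.6 CPM in the chr5 library and 38.2 CPM in the wild type. Across the 334 bins the wild-type count had a Spearman's rho of 0.54 with pseudogene coverage and of -0.21 with protein-coding coverage, whereas in the arms of chromosome 1 its rho with protein-coding coverage was 0.70 over 2617 bins. The other 4 pericentromeres were like the region, with a rho of 0.54 with pseudogene and of -0.37 with protein-coding coverage. Bins are not independent replicates, and repeat content was not separated from annotation here.

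One bin stood far above the rest. The bin from 15080001 to 15090000, which holds the protein-coding gene AT1G40104 and the pseudogene AT1G40103 (39.4% protein-coding and 13.6% pseudogene coverage), had 54279 counts in the chr5 library and 53259 in the wild type, 6.72 times the nuclear median of the wild type. Its fold was 0.989 (0.977 to 1.001). The bin before it held 12598 counts in the chr5 library and 12392 in the wild type, and the bin after it 4262 in chr5 and 4003 in the wild type. The high count thus fell in 1 bin, and its counting interval included a fold of 1.

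The other 7 of the 8 most counted bins were led by pseudogenes and held 15493 to 18893 counts in the chr5 library and 15940 to 18988 in the wild type. The bin of AT1G36840 and AT1G36810 (13950001 to 13960000), covered for 83.3% by pseudogenes, had 18535 counts in the chr5 library and 18988 in the wild type, a fold of 0.947 (0.928 to 0.967). That of AT1G41775 and AT1G41790 (15540001 to 15550000) had 17955 counts in chr5 and 18622 in the wild type, a fold of 0.936 (0.917 to 0.955), and that of AT1G37200 and AT1G37210 (14200001 to 14210000) was at 0.943 (0.923 to 0.964). Other bins of this kind were close to 1. The bin of AT1G36120 and AT1G36130 (13510001 to 13520000) had 18893 counts in the chr5 library and 18255 in the wild type, a fold of 1.004 (0.984 to 1.03), and that of AT1G42320 (15800001 to 15810000) had 17872 counts in chr5 and 16870 in the wild type, a fold of 1.03 (1.01 to 1.05). The bins of AT1G41803 and AT1G41810 and of AT1G43444 and AT1G43502 were at 0.973 and 0.985. Across the 8 most counted bins, 6 were below a log2 ratio of 0, as were 71.0% of the region's analysed bins and 38.6% of all analysed nuclear bins. None of the 8 reached 1.1-fold either way. Of all analysed nuclear bins, 2.65% were at least 1.1-fold lower and 0.81% at least 1.1-fold higher.

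Scaled counts in the region were slightly lower in the chr5 library than in the wild type. The median log2 ratio over the 334 analysed bins was -0.040, a fold of 0.972, with an SD over bins of 0.069 against 0.024 expected from counting alone. The SD also exceeded the 0.022 to 0.024 expected elsewhere. It was 0.049 in the arms of chromosome 1, 0.064 over all analysed nuclear bins and 0.086 in the other 4 pericentromeres. In the arms of chromosome 1 the median was 0.027 over 2617 bins, a difference of -0.067 on the log2 scale, or 0.955-fold. Of the 334 bins, 237 (71.0%) were below 0, against 26.7% in the arms of chromosome 1 and 38.6% of all analysed nuclear bins. The counting interval of the fold lay below 1 in 153 bins and above 1 in 30. No share over all nuclear bins or over the arms is given for these intervals, so whether these counts are unusual was not tested. The 2 profiles were otherwise alike, with a Pearson's r of 0.995 between the log2 counts across the 334 bins. When the region was widened to within 3 Mb of the centre, the median was -0.0093 and the difference from the arms -0.036.

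By window medians, the ratio turned from above 0 outside to below 0 inside near the chosen limits. The 4 windows of 0.5 Mb before 13 Mb had medians from 0.026 to 0.042 and the 4 windows after 17 Mb medians from 0.013 to 0.033. Inside, 7 of 8 windows were below 0, from -0.0090 between 13 and 13.5 Mb to -0.065 between 14 and 14.5 Mb. The fall on the left was gradual, with 0.031 in the last window outside and -0.047 between 13.5 and 14 Mb. On the right side the medians ran from -0.047 between 15 and 15.5 Mb to -0.033 between 16.5 and 17 Mb, next to 0.033 in the first window outside. The share of bins below 0 was 85.4% between 14 and 14.5 Mb and 58.0% between 16.5 and 17 Mb, against 30.6% just outside, between 17 and 17.5 Mb. Single bins at the limits were mixed. The first bin inside, from 13000001, had 15069 counts in the chr5 library and 15679 in the wild type (fold 0.933, 0.912 to 0.954), and the last bin outside, from 12990001, had 7666 in chr5 and 7681 in the wild type (fold 0.969, 0.938 to 0.9999). At the other end the last bin inside, from 16990001, was at 1.06 (1.02 to 1.1002) and the first outside, from 17000001, at 1.04 (1.01 to 1.07).

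**Figure D2:**
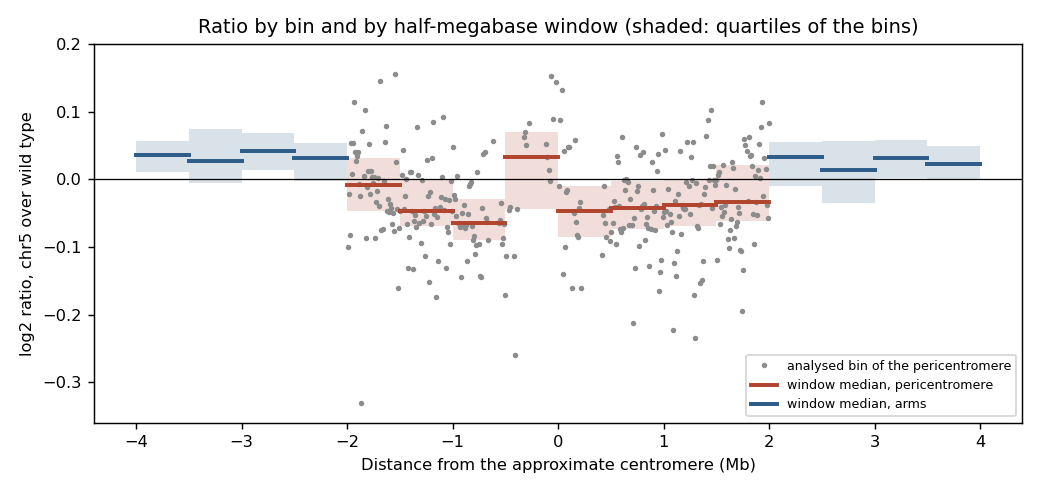
The log2 ratio of chr5 over wild type for each of the 334 analysed bins (grey points) and the median of each 0.5-Mb window (red inside the pericentromere, blue in the neighbouring arms; shading spans the quartiles), against distance from the approximate centromere in Mb. Of the 8 windows inside, 7 have a median below 0, and all 8 windows of the neighbouring arms lie above 0.

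The exception was the window from 14.5 to 15 Mb, with a median of 0.033. Its 17 analysed bins had few counts, with a median of 4053 in the chr5 library and 3796 in the wild type, and 7 of the 17 were below 0. Over all 50 bins of that window the summed counts were 111731 in the chr5 library and 110611 in the wild type, a fold of 0.980 (0.972 to 0.989). The window was thus above 0 by its median bin and below 1 by its sum. As a whole, the centromere core (within 0.5 Mb of 15 Mb, 43 of 100 bins analysed) had a median of -0.033, against -0.040 in the 291 analysed bins of the rest. This difference of 0.0071 was -0.0057 over bins at or above the nuclear median count and 0.046 over bins under it, so its sign and size depended on which bins were used. The left and right sides of the region had medians of -0.041 and -0.040.

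Few single bins stood out. At a threshold of 1.1-fold, 21 of the 334 bins (6.29%) were lower in the chr5 library, against 2.65% of all analysed nuclear bins and 0.611% in the arms of chromosome 1. In the other direction 4 bins (1.198%) were at least 1.1-fold higher, against 0.81% of all analysed nuclear bins and 1.22% in the arms of chromosome 1. There were 2 such bins outside the core, 2 when the median nuclear ratio was set to 0 and 10 with no count filter. At 1.2-fold 1 bin was lower (0.299%, against 0.298% of all bins) and none higher (0.0341% of all bins), and none passed 1.5-fold in either direction, as 0.00852% of all bins did in each. The share at least 1.1-fold lower in the region was smaller than the 14.5% of the other 4 pericentromeres.

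The bins lower in chr5 held much pseudogene sequence, at a median coverage of 48.1%. Of the 21 bins at least 1.1-fold lower, 17 were covered by pseudogenes for 25% or more, against 181 of all 334 analysed bins of the region. More pseudogene than protein-coding sequence was found in 19 of the 21, against 214 of the 334, and 12 of the 21 lay at or above the nuclear median count, against 175 of the 334, a share close to that of all bins. They were scattered, since 4 of the 21 had a neighbour that also passed. The 4 bins at least 1.1-fold higher held no annotated pseudogene, as did 71 of the 334, and were all under the nuclear median count, as were 159 of the 334. They ranged from 3036 to 6053 counts in the chr5 library and from 2663 to 5271 in the wild type.

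The lowest ratio was that of the bin from 13130001 to 13140000, in which the pseudogenes AT1G35590 and AT1G35600 lie, with 2802 counts in the chr5 library and 3422 in the wild type, a fold of 0.795 (0.756 to 0.836). Its neighbours were at 0.98 and 1.05, so the value belonged to that bin alone. The bin before it is that of CINV1, a cytosolic invertase gene, which was at 0.983 (0.951 to 1.02). The second lowest, in the centromere core, was the bin of AT1G39190 and AT1G39110 (14590001 to 14600000), covered for 76.3% by pseudogenes, with 9847 counts in the chr5 library and 11443 in the wild type, a fold of 0.835 (0.813 to 0.858). Here both neighbours were lower too, at 0.92 and 0.97.

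The next lowest bins lay on the right side of the centromere. The bin of AT1G43220 and AT1G43230 (16290001 to 16300000) had 2341 counts in the chr5 library and 2673 in the wild type, a fold of 0.850 (0.804 to 0.899). The preceding bin was at 0.89. The bin of AT1G42718 and AT1G42727 (16080001 to 16090000) had 9821 counts in chr5 and 11121 in the wild type, a fold of 0.857 (0.834 to 0.881). That of AT1G42050 and AT1G42003 (15700001 to 15710000) had 12043 counts in chr5 and 13545 in the wild type, a fold of 0.863 (0.842 to 0.884). Above these came the bins of AT1G44070 at 0.874, of AT1G36630 at 0.886 and of AT1G38450 at 0.888. All 8 held more pseudogene than protein-coding sequence, as did 214 of the 334 analysed bins, and their median pseudogene coverage was 60.0%. In 7 of the 8 both neighbouring bins were also below a log2 ratio of 0. Since 237 of the 334 analysed bins (71.0%) were below 0, such neighbours are common in the region.

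The 8 highest bins all lay below the median wild-type count, and 159 of the 334 analysed bins were under the nuclear median count. These bins were picked by a ratio that divides by the wild-type count, so a low wild-type count is partly built in. Only 1 of the 8 held more pseudogene than protein-coding sequence, against 214 of the 334. The highest was the bin from 13450001 to 13460000, covered for 54.4% by protein-coding genes and led by AT1G36050 and AT1G36060, with 6053 counts in the chr5 library and 5271 in the wild type, a fold of 1.11 (1.07 to 1.16). The bin of the protein-coding AT1G40086 (14930001 to 14940000), in the core, had 3050 counts in chr5 and 2663 in the wild type, a fold of 1.11 (1.05 to 1.17). The bin of the long non-coding RNA gene AT1G06933 (13310001 to 13320000) was at 1.11 (1.06 to 1.15), and a core bin with no annotated gene (14970001 to 14980000) had 3036 counts in chr5 and 2667 in the wild type, a fold of 1.105 (1.05 to 1.16). That of the pseudogene AT1G40093 (15030001 to 15040000), also in the core, was at 1.095 (1.03 to 1.16). The bins of AT1G35490, AT1G44830 and AT1G35630, all protein-coding genes, were at 1.08, 1.08 and 1.07. In 2 of the 8 were both neighbours on the same side of 0, in a region where 97 of the 334 analysed bins were above 0. For the core bin from 14970001, which is among these 2, both neighbours held too few counts to be analysed.

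Some bins on the same side of 0 lay in unbroken runs. Since 237 of the 334 analysed bins were below 0 and 97 above, long runs below 0 can arise without any link between neighbours. Whether the runs were longer than that was not tested. The longest unbroken run below 0 took 18 bins from 14050001 to 14230000, with 187948 counts in the chr5 library, 192198 in the wild type and a median log2 ratio of -0.068. NIA2, a nitrate reductase gene, lies inside it, and its own bin was at 0.995 (0.951 to 1.04). Runs of 13 bins (16020001 to 16150000, median -0.062) and of 12 bins (16280001 to 16400000, median -0.071) followed in length. On the other side the longest run above 0 took 8 bins from 13030001 to 13110000 (median 0.040), in a gene-dense stretch at the left edge with 37.2% protein-coding coverage. Next in length was a run of 5 bins from 16890001 to 16940000 (median 0.052) near the right edge, with 40.1% protein-coding coverage and no pseudogene. The log2 ratios of neighbouring bins had a Pearson's r of 0.23 over 317 pairs, which was 0.074 for bins 5 apart (303 pairs). In the arms of chromosome 1 neighbours had an r of 0.17, and in the other 4 pericentromeres an r of 0.33.

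The ratio differed with gene content. The 259 bins with under 25% protein-coding coverage had a median log2 ratio of -0.047, and the 24 bins with over 50% a median of 0.0011, a difference of -0.048. In the arms of chromosome 1 the order was the other way, with 0.045 for 193 gene-poor bins and 0.021 for 1887 bins with over 50%. By pseudogene coverage, the medians in the region were -0.057 for 87 bins with over 50%, -0.062 for 94 bins with 25 to 50% and -0.0013 for 153 bins with under 25%. Of the bins with over 50% pseudogene, 90.8% were below 0. Spearman's rho of the log2 ratio was -0.47 with pseudogene coverage and 0.32 with protein-coding coverage across the 334 bins, against -0.049 and -0.26 across the arm bins. Across 1548 bins of the other 4 pericentromeres rho was -0.45 and 0.42, so the pattern was not particular to chromosome 1. Their median log2 ratio was -0.072 in 1218 bins with under 25% protein-coding coverage and 0.018 in 126 bins with over 50%. The 22 arm bins with over 50% pseudogene were also low, at -0.041.

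The number of counts in a bin moved with the ratio as well. Across the region rho of the log2 ratio with the mean scaled count was -0.42, and across the arms of chromosome 1 it was -0.41. In the region the medians by count class ran from 0.051 for 27 bins under 0.5 times the nuclear median to -0.066 for 56 bins at 1.5 times and over, and in the arms from 0.085 for 87 bins to -0.025 for 109 bins. In each of the 6 classes the region was below the arms, with differences from -0.034 to -0.072. Pseudogene coverage and count were related, so both were split at once. Among bins at or above the nuclear median count, the 136 with 25% pseudogene or more were at -0.066 and the 39 with less at -0.025, against -0.012 (57 bins) and 0.014 (1196 bins) in the arms. Among bins under the median count, the 45 with 25% pseudogene or more were at -0.040 and the 114 with less at 0.0045, against 0.0070 (52 bins) and 0.043 (1312 bins) in the arms. Each class of the region thus lay below the same class of the arms.

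**Figure D3:**
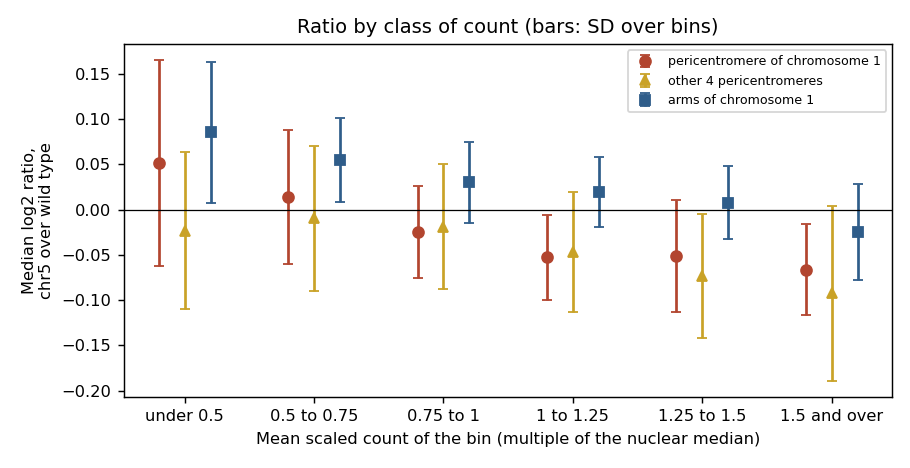
Median log2 ratio of chr5 over wild type by class of the bin's mean scaled count (multiple of the nuclear median), for the pericentromere of chromosome 1 (red circles), the other 4 pericentromeres (yellow triangles) and the arms of chromosome 1 (blue squares); bars are the SD over bins. In all 6 classes the pericentromere of chromosome 1 lies below the arms, while its order against the other pericentromeres changes from class to class.

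Among the 5 pericentromeres, that of chromosome 1 had the median nearest to 0. Its -0.040 compares with medians of -0.056 for chromosome 2, -0.057 for chromosome 3, -0.058 for chromosome 4 and -0.065 for chromosome 5, and it lay above the other 4 together by 0.018. Measured against the arms of its own chromosome the difference was -0.067, and on the others it was from -0.070 to -0.087. By mean log2 ratio chromosome 1 was also nearest to 0, at -0.034 against -0.054 for chromosome 2 to -0.072 for chromosome 5. In summed counts chromosome 3 was nearest to 1, at a fold of 0.974 against 0.971 for chromosome 1. The most counted bin of the chromosome 3 pericentromere held 1123610 counts in the chr5 library and 1071576 in the wild type. By count class the order was not constant. The region was above the other 4 by 0.075 in the sparsest class, by 0.024, 0.022 and 0.026 in 3 others, while in the other two, the classes just under and just over the nuclear median, the differences were -0.0056 and -0.0057. With 1 library per genotype a difference of this size between pericentromeres could not be tested.

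**Figure D4:**
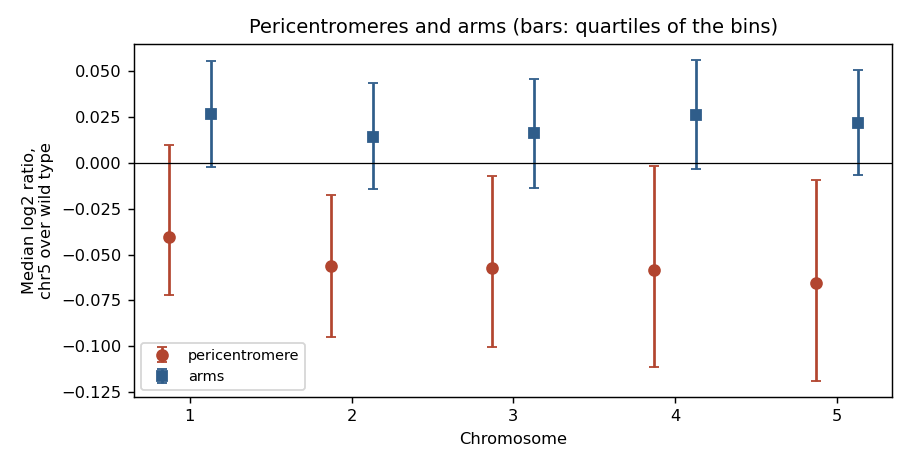
Median log2 ratio of chr5 over wild type in the pericentromere (red circles) and the arms (blue squares) of each chromosome, with the quartiles of the analysed bins as bars. All 5 pericentromeres are below 0 and all 5 sets of arms above 0 by their medians. Chromosome 1 has the smallest difference between these medians, -0.067.

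The protein-coding genes of the region were described through 6 lists of genes with known roles, 50 of whose 58 members have their midpoints in the region. They fell in 43 bins, all analysed, with a median protein-coding coverage of 40.4%. Their median log2 ratio was -0.00072, whereas the 291 analysed bins with no listed gene had a median of -0.043. Of the 43 bins, 29 were below the nuclear median ratio of 0.015, against 50% of all bins, and 24 were below 0, against 38.6% of all analysed nuclear bins. None was at least 1.1-fold lower, against 2.65% of all analysed nuclear bins, and 1 was at least 1.1-fold higher, against 0.81%. Whether these counts of the 43 bins differ from those shares was not tested. The counting interval of the fold lay below 1 in 9 bins and above 1 in 6, against 153 and 30 of the 334 analysed bins of the region. A bin of 10 kb holds more than the gene named, so each value is that of its neighbourhood.

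Bins of photosynthesis and chloroplast genes had a median of -0.023, with 5 of 6 bins below the nuclear median. The lowest was the bin of GAPB, the B subunit of the chloroplast glyceraldehyde phosphate dehydrogenase of the Calvin cycle, which it shares with the listed gene AT1G42960. It held 8631 counts in the chr5 library and 9015 in the wild type, a fold of 0.929 (0.902 to 0.957). CH1, which encodes the oxygenase that makes chlorophyll b, had 5599 counts in the chr5 library and 5629 in the wild type, a fold of 0.965 (0.9301 to 1.002). The bin of NPQ4, the PsbS protein that dissipates excess light energy, held 4676 counts in chr5 and 4646 in the wild type, a fold of 0.977 (0.938 to 1.02). The thioredoxin gene ty2 was at 0.992 (0.966 to 1.02) and AT1G36390 at 0.9995 (0.966 to 1.03). RPL21C, a plastid ribosomal protein gene, was the one above, at 1.04 (0.995 to 1.08).

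Metabolic enzyme genes had a median of -0.0081, with 10 of 13 bins below the nuclear median. SHM7, a serine hydroxymethyltransferase gene, had 11110 counts in the chr5 library and 11515 in the wild type, a fold of 0.936 (0.912 to 0.961). AT1G36280 was at 0.964 (0.937 to 0.992) and FTM1, a stearoyl-ACP desaturase gene, at 0.967 (0.940 to 0.994). The acetyl-CoA carboxylase genes ACC1 and ACC2, neighbouring copies whose reads the counting could split, were at 0.970 (0.942 to 0.999) and 0.9999 (0.976 to 1.02). The remainder lay between 0.978 for the aldehyde dehydrogenase gene ALDH3H1 and 1.06 (1.01 to 1.103) for TPPD, a trehalose phosphate phosphatase gene with 4225 counts in the chr5 library and 3883 in the wild type. Among them were the serine decarboxylase gene EMB1075 at 0.994, the sterol glucosyltransferase gene UGT80B1 at 0.999, and FBP, the cytosolic fructose bisphosphatase gene, and ILL6, an amidohydrolase gene of hormone conjugates, both at 1.01.

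Genes of transcription and signalling spread the most, from -0.12 to 0.16, with a median of 0.0036, or -0.011 relative to the nuclear median. GLR3.3, a glutamate receptor-like channel of wound signalling, shares its bin with PMI1, a gene of chloroplast movement. That bin held 9511 counts in the chr5 library and 10023 in the wild type, a fold of 0.921 (0.895 to 0.947). SEU, a transcriptional co-regulator of flower development, held 6320 counts in chr5 and 6583 in the wild type, a fold of 0.932 (0.89998 to 0.965). BZIP60, a transcription factor of the unfolded protein response, was at 0.985 (0.947 to 1.02), VIP1, another bZIP factor, at 0.994, and RAP2.6, an ethylene response factor, at 0.9997. FBH1, a bHLH activator of flowering, was at 1.01, the MYB gene HOS10 at 1.03 and the calcium-dependent kinase gene CDPK2 at 1.04 (0.995 to 1.08). The highest were AT1G44830 at 1.08 (1.04 to 1.13) and AT1G36060 at 1.11, both already among the 8 highest bins, with AT1G43000 at 0.963 and AT1G43900 at 1.01.

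The 3 auxin response factor genes in the region, members of a family of close copies on this chromosome, were near 1. ARF15 had 4626 counts in the chr5 library and 4408 in the wild type, a fold of 1.02 (0.977 to 1.06), ARF14 had 6634 counts in chr5 and 6468 in the wild type, a fold of 0.995 (0.962 to 1.03), and ARF23 had 7439 counts in chr5 and 7290 in the wild type, a fold of 0.990 (0.959 to 1.02). Reads of such copies could be split between them. Genes of replication, ribosome, proteasome and RNA binding had a median of -0.00045. MCM2, a subunit of the replicative helicase, was at 0.974 (0.949 to 1.001), RP1, a ribosomal protein gene, at 0.9997, and PTB3, a regulator of splicing, at 1.04 (1.01 to 1.07). AT1G43860 was the lowest of this list at 0.949 (0.927 to 0.973), and AT1G44180 the highest at 1.04 (0.989 to 1.101).

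Membrane and trafficking genes had a median of 0.015, which was level with the nuclear median, 4 bins lying above it and 4 below. Apart from PMI1, all were between 1.002 and 1.04. The amino acid permease gene AAP5 had 6720 counts in the chr5 library and 6256 in the wild type, a fold of 1.04 (1.01 to 1.08), and SKS6, a member of the SKU5-similar family, had 5780 counts in chr5 and 5373 in the wild type, a fold of 1.04 (1.01 to 1.08). The bins of the annexin gene ANNAT1, the small GTPase gene RAB18 and the transporter gene SIAR1 were at 1.01, 1.02 and 1.002. GAPB with AT1G42960, SHM7, SEU, GLR3.3 with PMI1, and AT1G43860 were the listed genes with folds under 0.95.

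**Figure D5:**
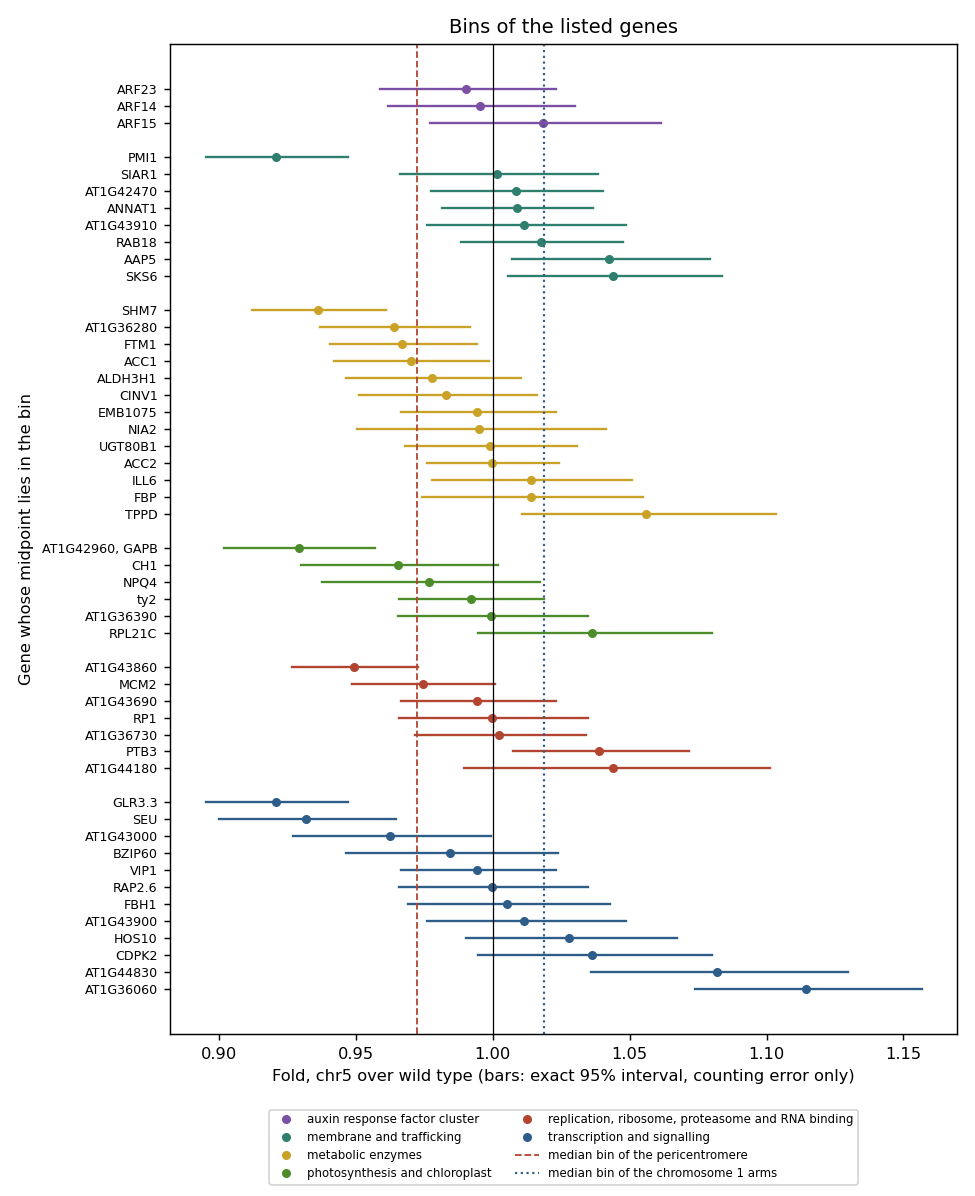
Fold of chr5 over wild type for each bin that holds the midpoint of a listed gene, with exact 95% intervals for counting error only; genes of 1 list that share a bin are written together and a bin is drawn once for each list. The dashed line is the median bin of the pericentromere (0.972) and the dotted line that of the chromosome 1 arms (1.02); most listed genes lie between the lines or close to 1.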

How the data were processed

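Leaf chromatin was digested with MNase and standard genomic libraries were made, per the labels' protocols, from the DNA that was protected. BWA 0.7.5a and bedtools are named in the submitters' processing notes. What each did, the genome build, and how duplicates and multiply matching reads were treated were not given in the sources used here. For each library the authors deposited whole-number counts per 10 kb bin, not normalized, with 102961878 counts for chr5 and 99909809 for the wild type.

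Counts were scaled to the total over chromosomes 1 to 5. The log2 ratio used a pseudocount of 1, and folds of single bins and sums used none. Bins whose mean scaled count was below 0.25 of the nuclear median were left out of the medians, correlations and bin counts of the log2 ratio unless stated. Their folds were given apart, and sums over a whole window or region included their counts. Reads are not independent molecules, so intervals and the limit for a bin at 0 cover counting error only. The other pericentromeres were bins within 2 Mb of 3.6, 14, 4 and 12 Mb on chromosomes 2 to 5, approximate positions.

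Genes were placed with a RefSeq table of assembly TAIR10.1, used for names and overlaps only. Since no build is named, shifts of up to 4 bins were compared. The wild-type log2 count less its running median over 21 bins correlated best at no shift with protein-coding coverage in both segments of chromosome 1 (0.52 and 0.53, at most 0.067 when shifted) and, over the pericentromere, with pseudogene coverage (0.45, at most 0.17). With protein-coding coverage the pericentromere gave -0.036 at no shift and up to 0.13 when shifted. All 58 listed loci were found in the table.

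The named bins were the 8 lowest and 8 highest ratios, the 8 highest and 5 lowest wild-type counts, the runs at 0 and the bins at the limits, with up to 2 genes each, and every listed gene. Members and lists were chosen with earlier results of these data known. No genome sequence was used here. Scripts were tested on simulated counts. The tools were scipy 1.17.1, matplotlib 3.10.9, pandas 2.3.3 and numpy 2.4.6 under Python 3.11.15.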

Additional observations from a re-analysis of the deposited data

How the results depend on the processing

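Values were recomputed with the median nuclear bin ratio set to 0, with totals that include organelles, with no count filter, with bins from 0.5 to 4 times the nuclear median, with a pseudocount of 10, in bins of 50 kb, within 1 or 3 Mb of the centre, and as means or sums. The median of the region stayed negative, from -0.055 with the median bin at 0 to -0.0093 within 3 Mb, and its difference from the arms from -0.036 within 3 Mb to -0.070 within 1 Mb, and -0.074 over bins from the median count up (chosen after seeing the data). Bins at least 1.1-fold lower numbered 17 to 29. Those at least 1.1-fold higher numbered 2 with the median bin at 0, 2 with bins from 0.5 to 4 times the median and 10 with no filter; without the core, chosen after seeing the data, they numbered 2. The core minus the rest (0.0071) had no stable sign or size. It was 0.030 with no filter, 0.015 as a mean and, over bins under the median count, 0.046. It turned negative with bins from 0.5 to 4 times the median (-0.0036), in bins of 50 kb (-0.0046) and over bins from the median count up (-0.0057). Both splits by count were chosen after seeing the data. The wild-type level of 1.05 times the nuclear median became 0.984 with no filter, 1.12 with bins from 0.5 to 4 times the median, 1.21 within 1 Mb, 0.969 within 3 Mb and 1.098 as a mean. The cause of these moves was not tested. A bin with the median counts of the region has a 95% counting interval of 0.044 either way on the log2 scale, so most single folds within about that distance of 1 could not be told from 1 at this depth. No paired analysis was possible because each genotype has 1 library.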
